A study of Mus musculus with 3 samples.

Results

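The genes described here are 9 that neurons use to fire and to release glutamate: Scn1a, Kcna1, Kcna2, Kcnc1, Slc17a6, Slc17a7, Snap25, Syt2 and Cplx1. They were given as a list of names and found by Ensembl identifier in all 3 libraries, which makes 9 of the 27734 genes that the libraries share. Single cells came from whole cochleae of wildtype C57BL/6J mice, dissociated with papain and thermolysin, passed through a cell sorter to remove debris and captured with the 10x Genomics 3' kit. There were 2 libraries from embryonic day 15 (E15) and 1 from postnatal day 7 (P7), with no treatment. How many animals went into a library, and whether the E15 libraries came from separate animals, is not given in the sources used here, so every p-value below measures only the spread between these libraries, which may be technical.

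Neurons were cells with at least 5 unique molecular identifiers (UMIs, counted molecules) of Tubb3 and at least 2 of Stmn2, genes of the neuronal cytoskeleton. Neurons by this rule numbered 77 in E15 replicate 1, 98 in E15 replicate 2 and 18 at P7, with 1468123, 1515881 and 811243 UMIs in all. Just outside the rule, with at least 3 Tubb3 and 1 Stmn2 UMI, were 11, 4 and 12 cells, whose 9 genes summed to 21, 2 and 104 UMIs. Every gene of a neuron marker list of 14, which includes Tubb3, Stmn2 and Snap25, was detected in each of the 3 neuron groups. P7 glia also held UMIs of all 14, so detection alone does not set neurons apart. No neuron met the rule for hair cells. P7 neurons were deeper, with a median of 43054 UMIs per cell against 18833 and 14912 at E15, and genes of several other cell types were higher in them. Summed myelin genes stood at 2404 CPM (a gene's share of all UMIs of its cells, as counts per 1000000) in P7 neurons and at 23.2 and 26.4 at E15. A glia list stood at 4096 CPM against 230.2 and 438.7, and a mesenchyme list at 696.5 against 58.6 and 58.7. A bone list of 2 genes was at 2298 CPM at P7 and 0 at E15, and 1 cell held 1127 UMIs of one of them, Bglap. The sum of the 8 hair cell markers went the other way, from 38.1 and 15.2 CPM in E15 neurons to 6.16 CPM in P7 neurons. That fall was mostly of Ccer2, from 30.65 and 11.9 to 2.47 CPM. Pou4f3, Gfi1, Atoh1, Myo15 and Tmc1 had no UMI in neurons of any library. Of the barcodes, 3 were shared by the E15 libraries and 6 by P7 with each of them.

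An action potential starts when voltage-gated sodium channels open and ends when potassium channels carry the membrane back to rest. At a synapse the arriving impulse lets in calcium, which a synaptotagmin senses, and a complex of SNARE proteins that includes Snap25 then fuses transmitter-filled vesicles with the membrane, held ready by complexins. Spiral ganglion neurons, the cells that carry sound signals from hair cells to the brain, are excitatory and load their vesicles with glutamate through vesicular transporters. They become active before hearing starts and later fire at very high rates.

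On GRCm38, the build of the files, GENCODE M21 places Scn1a at chr2:66270778-66440840, Kcna1 at chr6:126640397-126646384, Kcna2 at chr3:107101146-107115005 and Kcnc1 at chr7:46396497-46438704. It places Slc17a6 at chr7:51622006-51671119, Slc17a7 at chr7:45163949-45176142, Snap25 at chr2:136713453-136782428, Syt2 at chr1:134646677-134762593 and Cplx1 at chr5:108518554-108550024. Scn1a, Kcna1 and Cplx1 lie on the minus strand. Syt2 overlaps the protein-coding gene Ppp1r12b on the opposite strand, and Scn1a and Snap25 overlap noncoding entries there. Slc17a6 overlaps the entry Gm45072 (class TEC) and Slc17a7 the miRNA entry Mir7055, each on its own strand. How the counts treated strand is not given in the sources used here.

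The promoters of 4 of the genes are shown because Scn1a, Slc17a7 and Kcna2 had the largest age differences of the 9, while Slc17a6, the counterpart of Slc17a7, had the smallest. RefSeq on build GRCm38.p6 gave promoters for 7 of the 9 genes (none was matched for Kcna1 or Snap25), 9 promoters in all since Slc17a6 and Syt2 have a pair each. Each line gives the 250 bases before the start, and for Slc17a6 the first of its pair. Capitals mark GGGCGG or its reverse CCGCCC, the GC box, and CAGCTG, an E box.
Scn1a, chr2:66440838-66441087, strand minus: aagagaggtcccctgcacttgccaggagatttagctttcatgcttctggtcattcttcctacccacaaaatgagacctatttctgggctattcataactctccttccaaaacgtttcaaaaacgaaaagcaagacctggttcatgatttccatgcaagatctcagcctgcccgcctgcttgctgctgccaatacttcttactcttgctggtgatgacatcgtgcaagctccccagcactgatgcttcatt
Kcna2, chr3:107101317-107101566, strand plus: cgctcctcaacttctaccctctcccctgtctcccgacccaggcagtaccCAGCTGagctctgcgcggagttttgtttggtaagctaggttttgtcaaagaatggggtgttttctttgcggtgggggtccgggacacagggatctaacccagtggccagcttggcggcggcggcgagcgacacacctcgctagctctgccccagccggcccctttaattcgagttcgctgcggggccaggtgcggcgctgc
Slc17a7, chr7:45163671-45163920, strand plus: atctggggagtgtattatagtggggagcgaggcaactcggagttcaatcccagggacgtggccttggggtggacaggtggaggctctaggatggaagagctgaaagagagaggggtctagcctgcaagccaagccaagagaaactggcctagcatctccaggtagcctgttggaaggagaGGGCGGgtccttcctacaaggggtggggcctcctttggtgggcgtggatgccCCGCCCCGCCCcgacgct
Slc17a6, chr7:51621580-51621829, strand plus: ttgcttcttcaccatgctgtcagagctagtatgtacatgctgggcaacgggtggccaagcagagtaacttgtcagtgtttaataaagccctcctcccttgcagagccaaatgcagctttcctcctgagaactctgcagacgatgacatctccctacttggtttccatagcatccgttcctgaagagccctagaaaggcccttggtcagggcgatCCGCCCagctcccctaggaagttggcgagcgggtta
The GC box occurred 3 times before Slc17a7, once before Slc17a6 and not before Scn1a or Kcna2, and 32.7% of all 32851 promoters of this length held it. CAGCTG, which reads the same on both strands, occurred once before Kcna2 and once before Cplx1, and 13.0% of all promoters held it. None of the 9 promoters held TATAAA, the cyclic AMP element TGACGTCA or TTCAGCACC, searched on both strands, which 12.4%, 1.55% and 0.301% of all promoters held. The Scn1a promoter was 46.8% G or C and the Slc17a7 promoter 61.2%, against a median of 52.4% over all promoters. These letters describe the windows only.

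In the neurons, 8 of the 9 genes were higher at P7 than at E15 and the ninth, Slc17a6, was not called. Calls needed a fitted change of 2-fold or more and, in edgeR's quasi-likelihood test, Benjamini-Hochberg adjusted p below 0.05. Of all 10440 genes tested in neurons, 32.3% were called, and 16.5% were called higher at P7. The median log2 difference was 3.18 over the 9 genes and -0.04 over all tested. All 9 passed the filter on low counts, Scn1a and Kcna2 through their P7 level alone. The calls of Scn1a and Kcna2 are therefore no result, and the count of 8 and the median are a description. P7 is 1 library, so its own spread was not measured and the age cannot be told apart from that library, its deeper neurons or its Cell Ranger version (3.1.0 in the P7 file header, 6.1.2 in the E15 ones).

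**Figure D1:**
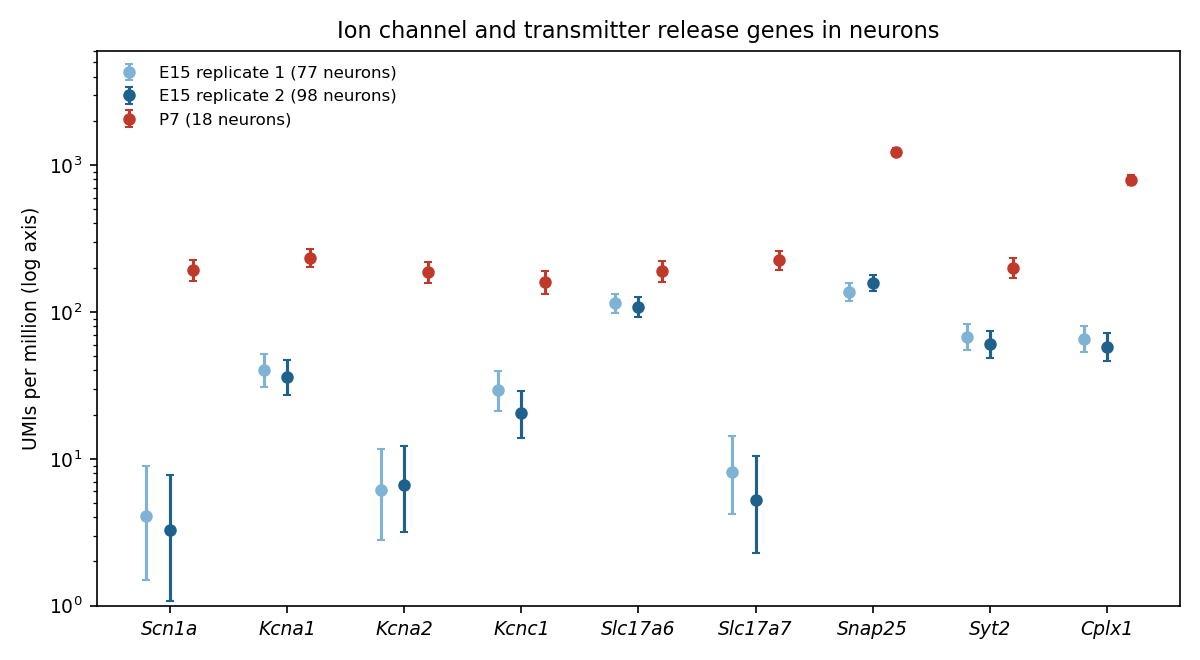
CPM of the 9 genes (log axis) in the neurons of each library, with exact 95% Poisson intervals that cover counting error only. P7 points lie above both E15 points for every gene, from 1.70-fold for Slc17a6 to 52.2-fold for Scn1a.

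Scn1a encodes a sodium channel alpha subunit that opens the upstroke of the action potential. Its level was 4.09 CPM (6 UMIs) in E15 replicate 1, 3.30 CPM (5 UMIs) in E15 replicate 2 and 192.3 CPM (156 UMIs) at P7. The P7 library was far above both E15 libraries, which were close to each other, with a fitted log2 difference of 5.80 ± 0.30 (SE). Scn1a passed the filter on low counts through P7 alone, so its call is no result and the levels are a description. The E15 level cannot be separated from that of cells that are not neurons: mesenchyme cells held 2.13 and 2.21 CPM at E15, and neurons were at 1.70 times that level (95% interval 0.824 to 3.15). At P7 neurons held 109.5 times the mesenchyme level of 1.76 CPM.

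Kcna1 and Kcna2 encode potassium channel alpha subunits that assemble with each other at the sides of the node of Ranvier and keep axons from firing repeatedly. Kcna1 stood at 40.2, 36.3 and 233.0 CPM in E15 replicate 1, E15 replicate 2 and P7 (59, 55 and 189 UMIs). The E15 libraries lay close together and P7 above both, a log2 difference of 2.74 ± 0.19 (SE) with an edgeR adjusted p of 9.91e-46. Kcna2 stood at 6.13, 6.60 and 186.1 CPM, from 9 and 10 UMIs at E15. Its log2 difference of 4.99 ± 0.27 (SE) was the larger of the pair. Kcna2 passed the filter on low counts through P7 alone, so its call is no result. Kcna2 made up 13.2% and 15.4% of the UMIs of both genes at E15 and 44.4% at P7.

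Kcnc1 encodes the delayed-rectifier subunit of the fast potassium channels that let a neuron fire at high rates. It was at 29.3 and 20.5 CPM at E15 (43 and 31 UMIs) and at 159.0 CPM at P7 (129 UMIs). The E15 libraries were further apart here than for Kcna1, but P7 was well above both, by 2.81 ± 0.22 (SE) on the log2 scale with an edgeR adjusted p of 6.58e-35.

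Slc17a6 and Slc17a7 encode the vesicular glutamate transporters that fill synaptic vesicles. Slc17a6 was at 114.4 and 108.8 CPM at E15 (168 and 165 UMIs) and at 189.8 CPM at P7 (154 UMIs). Its log2 difference of 0.90 ± 0.17 (SE) had an adjusted p of 9.19e-07 in edgeR's test but stayed under the fold of 2, and it stood at 1.01 to 1.03 under 3 of the alternative settings, 1 of which left a single neuron library at each age. Slc17a7 was at 8.17 and 5.28 CPM at E15 (12 and 8 UMIs) and at 224.3 CPM at P7 (182 UMIs), a log2 difference of 5.18 ± 0.26 (SE; edgeR adjusted p 2.03e-87). Slc17a7 thus moved from 6.67% and 4.62% of the UMIs of the pair at E15 to 54.2% at P7 (exact 95% binomial intervals 3.49 to 11.4%, 2.02 to 8.91% and 48.7 to 59.6%). By cells, 5 of 77 and 6 of 98 E15 neurons held both genes, and 52 and 64 held Slc17a6 alone. At P7, 10 of 18 neurons held both, 3 Slc17a6 alone, 2 Slc17a7 alone and 3 neither, in deeper cells.

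Snap25, a SNARE protein of the plasma membrane, had the most UMIs of the 9 genes in every library and so the smallest counting error. It was at 136.9 and 158.3 CPM at E15 (201 and 240 UMIs) and at 1219 CPM at P7 (989 UMIs), a log2 difference of 3.18 ± 0.14 (SE; edgeR adjusted p 4.4e-113). Cplx1, a complexin that clamps and then promotes fusion, went from 65.4 and 58.1 CPM (96 and 88 UMIs) to 787.7 CPM (639 UMIs). Its log2 difference was 3.81 ± 0.15 (SE) with an edgeR adjusted p of 3.19e-138. Syt2, the calcium sensor of fast synchronous release, went from 67.4 and 60.7 CPM (99 and 92 UMIs) to 198.5 CPM (161 UMIs), by 1.77 ± 0.18 (SE; edgeR adjusted p 4.31e-21). For these 3 release genes the E15 libraries were close and P7 stood clear of both.

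Related genes of the same families did not all go the same way. Scn3a, a sodium channel of embryonic neurons, fell by 1.92 ± 0.27 on the log2 scale, from 131.5 and 105.5 to 28.4 CPM, so that Scn1a went from 3.02% and 3.03% of the UMIs of these genes together to 87.2%. Cplx2 fell by 2.32 ± 0.31 on that scale, from 89.9 and 113.5 to 18.5 CPM, and Cplx1 went from 42.1% and 33.9% of the complexin pair to 97.7%. Syt1 was at 62.0, 70.6 and 54.2 CPM and was not called, while Syt2 went from 52.1% and 46.2% of that pair to 78.5%. Kcna6 fell by 1.5 ± 0.33 on the log2 scale, and Kcnc2 was not called at a log2 difference of 0.02 ± 0.44. Kcnc4 and Scn8a rose, by 4.17 ± 0.74 and 2.57 ± 0.27, but Kcnc4 passed the filter on low counts through P7 alone. Scn2a (0.95 ± 0.42) and Snap23 (0.09 ± 0.81) were not called. UMIs of 3' ends are not divided by length and genes differ in how well they are captured, so each share is read across libraries only.

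**Figure D2:**
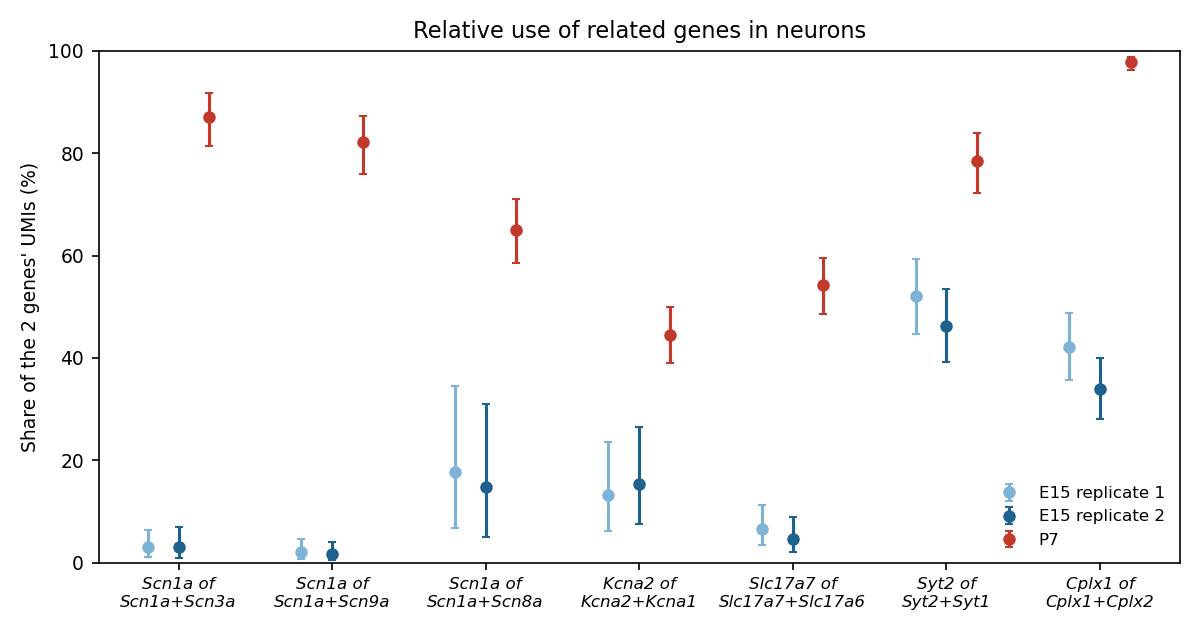
Share of a gene in the UMIs of itself and 1 related gene (percent) in the neurons of each library, with exact 95% binomial intervals. P7 intervals lie above those of both E15 libraries in all 7 pairs drawn.

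Among 8 lists of channel and release genes, 131 genes with the 9 included, 108 were tested in neurons, of which 55 rose and 17 fell, beside 16.5% called higher and 15.8% called lower of all 10440 genes. The 17 falls are near that background. Some listed genes passed the filter on low counts through 1 age alone, so the counts and medians of the lists are a description. Kcnk1, at 2.04 and 1.98 CPM at E15, and Scn4b, Kcnip1, Vamp1, Syt3 and Lgi3 passed through P7 alone. For such genes only a rise could be called. Scn11a passed through E15 alone, and only a fall could be called for it. Outside the 9, of 99 tested, 47 rose, 17 fell and 35 were not called, with a median log2 difference of 1.00. Of 10 sodium channel genes tested 5 rose and 4 fell. The accessory subunit gene Scn2b (3.85 ± 0.37) rose, and Scn4b went from 0 UMIs to 43.1 CPM. Scn9a fell by 1.98 ± 0.23 and Scn3b by 1.62 ± 0.36, and Scn11a went from 16.4 and 11.2 CPM to 0. Of 21 potassium channel genes 14 rose, led by the leak channel Kcnk1 (7.26 ± 0.29) and the accessory subunit Kcnip1 (5.25 ± 0.66), and Kcna6 alone fell.

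Of 16 genes for pacemaker and calcium channels 7 rose and 3 fell. Hcn2 (3.53 ± 0.40), which carries the pacemaker current, rose. Cacna1e and Cacna1h, calcium channel pores, fell by 2.88 ± 0.26 and 2.61 ± 0.58. The vesicular transporter list had 2 of 7 genes tested, Slc17a6 and Slc17a7 themselves.

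Of 15 genes of the fusion machinery 7 rose, among them the vesicle SNARE Vamp1 (6.44 ± 0.27) and Nsf (2.51 ± 0.17), which takes used SNARE complexes apart. Stx1a and the priming factor Unc13b fell, by 2.10 ± 0.43 and 2.23 ± 0.49, as did Cplx2. Of 9 synaptotagmin genes 4 rose and 3 fell, with Syt3 up by 5.40 ± 0.42 and Syt13 down from 181.2 and 220.3 to 9.86 CPM. Of 23 vesicle and active zone genes 12 rose and 2 fell: Sncb was up by 6.50 ± 0.20 and Rph3a by 3.85 ± 0.19, while Rims2 fell by 2.11 ± 0.29 and Dnm3 by 1.08 ± 0.17. Of 12 genes of the axon initial segment and node 5 rose, Cntnap1 by 4.04 ± 0.39, and Nrcam fell by 2.24 ± 0.24. Lgi3 of this list went from 0 UMIs to 48.1 CPM in neurons, and P7 glia held it at 36.2 CPM.

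**Figure D3:**
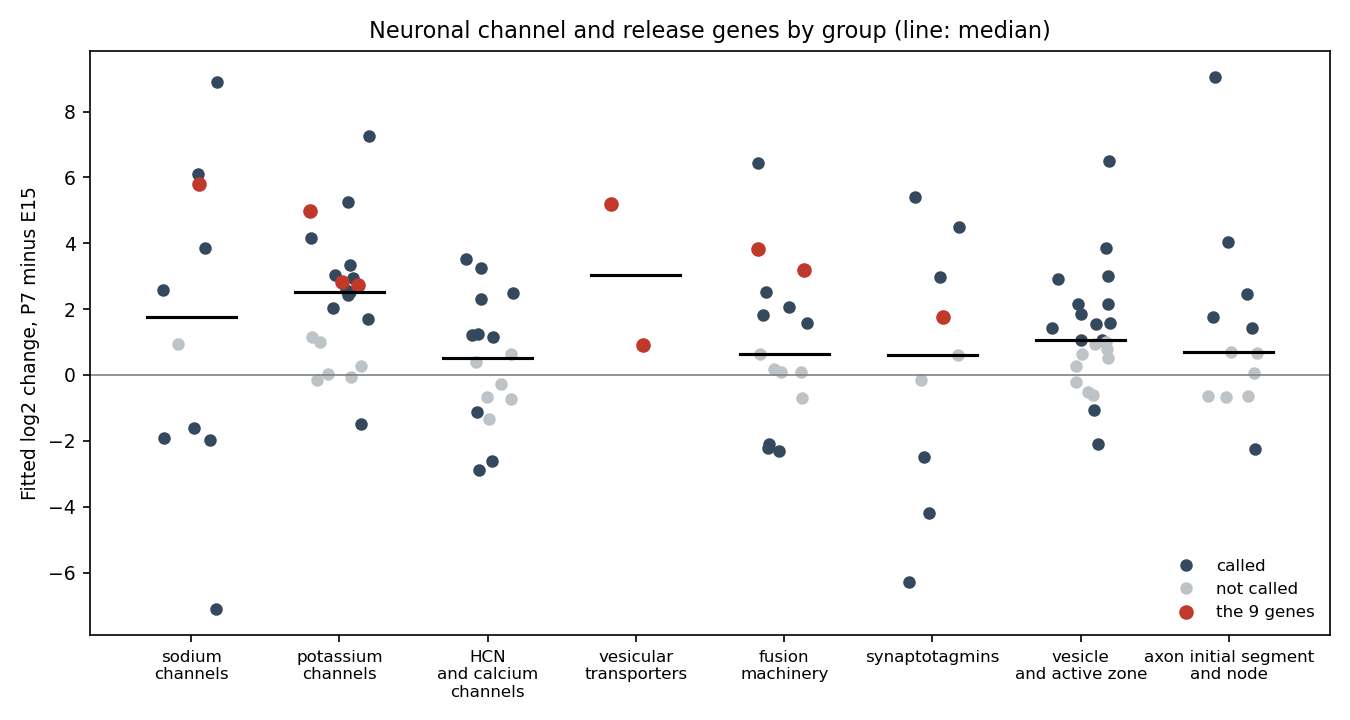
Fitted log2 difference, P7 minus E15, of the tested genes of each list in neurons (points), with the list's median (line) and the 9 genes in red. All 9 lie above 0, and 7 of the 8 lists hold called genes on both sides of 0, all but the vesicular transporters.

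The 18 P7 neurons were unequal. They held a median of 8 of the 9 genes, against 4 and 3 at E15, and after each cell was thinned to 5000 UMIs the medians were 5.5, 2 and 2. Cplx1 and Snap25 were detected in 17 of 18 P7 neurons each. The cell without them met the neuron rule with 5 Tubb3 and 3 Stmn2 UMIs, but its markers go against that name. It held no UMI of any of the 9 or of Isl1, and 1127 of its 30419 UMIs were of Bglap, a bone gene, and 76 of Col1a2. It is counted in the 18 and in the sums. Of the P7 neurons, 16 held an Isl1 UMI. With neurons limited to such cells, the 8 genes called with all neurons stayed higher at P7, at log2 differences of 2.00 to 5.91 (edgeR). Of the 16 with Isl1, 2 held Prph, a marker of the less common type II neurons, and lacked Kcna1, Slc17a7 and Syt2. Their Prph UMIs numbered 16 among 19249 UMIs and 1 among 64252, so in the deeper cell this marker rests on 1 UMI. The same cell held 49 Gata3 UMIs and 26 of the 27 UMIs of Th, a spiral ganglion marker gene, in all P7 neurons. The type of these 2 cells was not tested. The deepest cell (95606 UMIs) had 35 UMIs of Slc17a6 and 344 of Lypd1 but none of Slc17a7, Syt2 or Isl1.

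**Figure D4:**
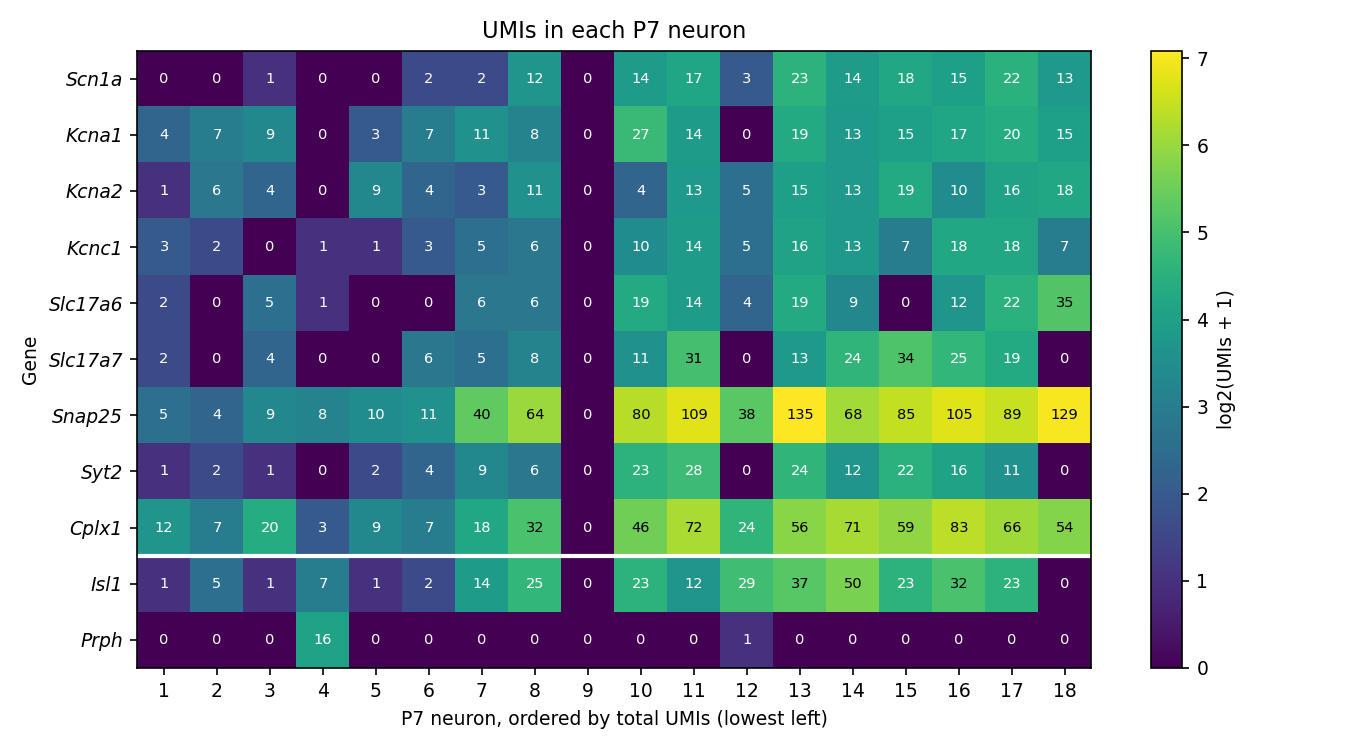
UMIs of the 9 genes and of Isl1 and Prph in each of the 18 P7 neurons, ordered by total UMIs, with colour on a log2(UMIs + 1) scale. Cell 9 has 0 for all 9 genes, and cells 4 and 12, which hold Prph, have 0 for Kcna1, Slc17a7 and Syt2.

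Shares of neurons with a UMI depend on depth and were also taken from thinned cells, which left out 3 and 5 E15 neurons. Thinned, Slc17a7 was in 2.70% and 3.23% of E15 neurons and in 61.1% of P7 neurons (14.3%, 8.16% and 66.7% unthinned). Cplx1 was in 18.9%, 28.0% and 83.3% of thinned neurons (63.6%, 50.0% and 94.4% unthinned). Slc17a6 was in 40.5%, 48.4% and 38.9% of thinned neurons (74.0%, 71.4% and 72.2% unthinned), and the interval at P7 ran from 17.3 to 64.3%. In mesenchyme, which should lack these genes, 0.373% and 0.0976% of E15 cells and 0.354% of P7 cells held a Slc17a7 UMI, at median depths of 15121, 11291 and 12017 UMIs. Mesenchyme cells were chosen by Pou3f4 with no Stmn2 UMI and few or none of Tubb3. That leaves out cells holding more neuronal RNA, so these shares may understate the level outside neurons.

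Kcna1 and Kcna2 were also found in glia. Sox10, a transcription factor gene of glia, had a UMI in 8 of 18 P7 neurons (5 of 77 and 6 of 98 at E15), and without such cells edgeR shared little of the spread between genes (prior degrees of freedom 1.59) and called none of the 8. Their adjusted p values were then 0.0551 to 0.0602 at log2 differences of 2.03 to 5.76, and edgeR called none of the 10071 genes tested. DESeq2 on the same cells called all 8, beside 1222 of the 10071 genes. The calls of Scn1a and Kcna2 are no result there either. The 10 P7 neurons without a Sox10 UMI held 228.7 CPM of Kcna1 and 154.8 CPM of Kcna2, and the 8 with one held 237.6 and 219.7 CPM. Scn1a was at 202.5 and 181.4 CPM and Snap25 at 1303 and 1129 CPM in the same split. Mesenchyme cells, which should lack it, held 4.32 CPM of Kcna1 at P7 and 0.0748 and 0.0776 CPM at E15. Cells in none of the named classes held 32.6 CPM at P7 and 1.07 and 0.516 CPM at E15. The part of other cells' RNA in the differences was not tested further.

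Glia were compared because they are the neighbours that wrap these neurons. Glia were chosen by UMIs of glial marker genes, Sox10 and Erbb3 among them, with no Epcam UMI, which gave 43, 14 and 433 cells, so that the E15 glia sums are thin. Kcna1 stood at 5.32 CPM (4 UMIs) and 0 CPM in E15 glia and at 712.5 CPM (3014 UMIs) in P7 glia, above the 233.0 CPM of P7 neurons. Over the summed libraries P7 glia held 169.6 times the E15 level (95% counting interval 66.2 to 622.9). Kcna1 passed the filter on low counts in glia through P7 alone, so its call there is no result, and the fitted log2 difference of 7.55 depends on the settings, from 7.57 to 12.8 over the alternatives. Of 9202 genes tested in glia 27.1% were called, 15.8% as higher at P7. Kcna2 stood at 39.9, 4.98 and 226.5 CPM in glia, a difference of 3.0 ± 0.26 (SE; edgeR adjusted p 1.79e-28). The E15 glia libraries differed for Kcna2, at 30 and 1 UMIs, and P7 was above both. The other 7 genes did not pass the filter on low counts in glia and were at 12.1 CPM (Snap25) or less at P7.

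Within P7 glia, the 244 cells with Prx, a gene of myelinating Schwann cells, and no Mog, a gene of oligodendrocytes, held 851.6 CPM of Kcna1 and 307.8 CPM of Kcna2. The 16 cells with Mog and no Prx held 178.4 and 34.5 CPM. The 169 cells with neither held 762.9 and 172.1 CPM. These cells belong to 1 library, so no test was made between them.

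At E15, 7 of the 9 genes were called higher in neurons than in glia and Kcna2 was called lower, with 33.1% of 11615 genes called (16.7% higher in neurons, 16.4% lower), in a fit with the library as a block. Of those 7, all but Kcna1 had 1 UMI or none in E15 glia and passed the filter on low counts through neurons, so the count is a description. Snap25 differed by 6.93 ± 0.51 and Cplx1 by 5.78 ± 0.65 (log2, SE). Slc17a6, Syt2, Kcnc1 and Slc17a7 had no UMI in E15 glia, and against 3 UMIs over that group neurons held at least 35.4-fold, 20.3-fold, 7.87-fold and 2.13-fold more. Kcna1 was higher in neurons by 3.20 ± 0.52 (edgeR adjusted p 4.8e-09), and Kcna2 lower, at a log2 difference of -2.12 ± 0.46 (edgeR adjusted p 1.83e-05). The lower Kcna2 was seen in replicate 1 alone, at 6.13 CPM in neurons and 39.9 CPM in glia. In replicate 2 neurons held 6.60 CPM and glia 4.98 CPM (1 UMI in 14 cells). For Scn1a the difference was 0.90 ± 1.09 (edgeR adjusted p 0.544) and was not called.

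The difference between neurons and glia itself was called as changed with age for 3 of the 9 genes. Of all genes tested 14.1% were so called (6.25% with a rise of neurons over glia, 7.81% with a fall). For Scn1a the difference grew by 6.34 ± 1.89 (log2, SE), but Scn1a passed the filter on low counts through P7 neurons alone, so its call is no result. For Kcna1 the difference changed by -4.82 ± 0.50 (edgeR adjusted p 5.97e-20), from higher in neurons at E15 to higher in glia at P7. For Kcna2 it changed by 1.82 ± 0.49 (edgeR adjusted p 0.00256). Kcna2 was lower in neurons at E15 in replicate 1 only, and P7 held 186.1 CPM in neurons and 226.5 CPM in glia. The other 6 were not called, and since their glia sums held 1 UMI or none at E15, no size of change can be read for them. With a stricter glia rule, which leaves 1 cell in E15 replicate 2, the Scn1a change was 2.53 and the Kcna2 change 2.37, neither called, and the Kcna1 change was -9.99 ± 2.68 (SE; edgeR adjusted p 0.0244).

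Hair cells, the sensory cells that these neurons contact, were few: 23 in the P7 library, with 3 and 0 in the E15 libraries. A hair cell held UMIs of at least 3 of 8 hair cell markers and was not a neuron. With mitochondrial UMIs limited to 10% in place of 20%, 1 of the 23 P7 hair cells remained, and all 18 P7 neurons did, so the hair cell values below rest on cells of high mitochondrial content. In P7 hair cells Snap25 was at 68.1 CPM (57 UMIs in 19 of 23 cells), Kcna2 at 26.3 CPM (22 UMIs), Syt2 at 13.1 CPM (11 UMIs) and Cplx1 at 2.39 CPM (2 UMIs). P7 neurons held 17.9 times as much Snap25 (95% counting interval 13.7 to 23.8). The other 5 genes had no UMI in hair cells, and against 3 UMIs neurons held at least 53.6-fold more Scn1a, 65.0-fold more Kcna1, 44.4-fold more Kcnc1, 52.9-fold more Slc17a6 and 62.6-fold more Slc17a7. Hair cells instead held the glutamate transporter gene Slc17a8 at 83.7 CPM and Otof, the calcium sensor of their ribbon synapse, at 638.3 CPM, of which P7 neurons held 2.47 and 0 CPM. Intervals and floors cover counting error only, and no test was made with 1 library.

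At P7 the order of the classes was neurons, hair cells, glia and mesenchyme for Snap25, and neurons, glia, hair cells and mesenchyme for Cplx1, whose hair cell level rests on 2 UMIs. For Kcna1 it was glia, neurons and, far below, mesenchyme at 4.32 CPM. For Kcna2 it was glia, neurons, hair cells and mesenchyme. The Kcna2 ratio of neurons to glia was 0.822 (95% counting interval 0.688 to 0.977), so these neighbours are close.

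Over 11 sums of UMIs per class and library with at least 20 cells, which leaves out the 18 P7 neurons, the genes outside the 9 whose profile on the log2(CPM + 1) scale was most like their mean were Onecut2 (Pearson r 0.988), Vbp1 (0.980) and Nacad (0.977). With the P7 neurons added, 12 sums in all and chosen after seeing the data, they were Nefh (0.984), a neurofilament gene, Snrpn (0.982) and Klhdc8a (0.981). Nefh was at 33.4, 33.0 and 1779 CPM in neurons. The sums share libraries and differ in depth, so these values are a description.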

How the data were processed

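Per the file headers, the authors deposited raw UMI counts per gene and barcode as 10x matrices, made with Cell Ranger 6.1.2 for E15 and 3.1.0 for P7 (the submitters' processing notes give 6.1.2 and GRCm38). No unit other than counts was used. Features files list 32285 genes at E15 and 28692 at P7, of which 27734 were joined by Ensembl ID. Libraries held 8141 barcodes and 93829443 UMIs (P7), 3234 and 46530036 (E15 replicate 1), and 3897 and 44304364 (E15 replicate 2).

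Barcodes had to show at least 500 genes and at most 20% mitochondrial UMIs. The highest Scrublet scores (scanpy 1.11.5) were taken as doublets at a rate of 0.008 per 1000 cells, since its own threshold marked 3 to 6 cells per library. This left 6838, 2770 and 3432 cells. UMIs were summed per library and class, and tested with edgeR 4.0.16 (TMM, filterByExpr, quasi-likelihood, Benjamini-Hochberg over all genes tested), with 1 residual degree of freedom. Neuron and glia sums shared a fit with library as a block. DESeq2 1.42.0 was an alternative. On simulated neuron sums (10440 genes, 200 changed), 81.5% of genes changed 4-fold and 28.5% of genes changed 2-fold were called. A true 2-fold change lies at the fold limit, and without that limit 36.5% of them passed on adjusted p. The simulation gave every gene the same dispersion and P7 the spread of E15, which 1 P7 library cannot show. These rates hold only under that assumption. Shares carry exact binomial and levels exact Poisson 95% intervals.

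The 9 genes, the lists and the marker genes were chosen with earlier results of these data known. From each list the 3 called rises and 3 called falls of largest fitted change could be named, with related genes of the 9. The deposited cells of E15 and P7 were mapped to groups by their titles. Alternatives covered the neuron and glia rules, doublets, a mitochondrial limit of 10%, normalization, filter, test, and leaving out each E15 library. A looser glia rule, a narrower neuron rule, neurons with an Isl1 UMI and DESeq2 without Sox10 cells were added after seeing the data. Some genes of the lists and rules are not reported here.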

Additional observations from a re-analysis of the deposited data

Results flagged for a closer look

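The neuron against glia difference was called as changed from E15 to P7 for 3 of the 9 genes by edgeR's test of the change. Of all 11615 genes tested, 14.1% were so called. The change was 6.34 ± 1.89 (log2, SE) for Scn1a, which rose in neurons and was at 1.18 CPM in P7 glia. It was -4.82 ± 0.50 for Kcna1, whose level was higher at P7 in both classes. It was 1.82 ± 0.49 for Kcna2, which rose in both. The E15 glia sums behind these changes held 2 Scn1a, 4 Kcna1 and 31 Kcna2 UMIs in 57 cells. Of those Kcna2 UMIs, 30 came from replicate 1 and 1 from replicate 2. Scn1a passed the filter on low counts through P7 neurons alone, so its call is no result.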

How the results depend on the processing

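The 9 genes kept their direction in neurons under all 17 alternatives. Slc17a6 was called under the stricter neuron rule (log2 difference 1.03), under a rule scaled to depth (1.01) and without E15 replicate 1 (1.01). The number of genes called in neurons was 3371, against 1504 with DESeq2, 1845 when tested against a fold of 2, and 0 without Sox10 cells (3458 at an unadjusted p under 0.05, and 1222 with DESeq2). There edgeR's prior degrees of freedom were 1.59, where it otherwise shared the spread fully between genes in the fit of all neurons. Without E15 replicate 1 or 2 the count was 2881 or 2866, in a fit with the glia sums, whose E15 pair gave the only residual degree of freedom, so the lone E15 neuron library is assumed to vary as E15 glia do. With a stricter glia rule (1 cell in E15 replicate 2) the counts were 458 for age in glia, 1095 for neurons against glia at E15 and 123 for its change with age, and Kcna2 (-2.38), Kcnc1 (7.98) and Slc17a7 (6.15) were no longer called at E15. Without the replicate block, the counts were 4050 at E15 and 1704 for the change. P7 counts rest on 18 neurons in 1 library, E15 glia on 43 and 14 cells, and a gene under 3 UMIs is not told apart from 0. Of 27 shares of neurons with a UMI, 20 lay outside their interval once thinned.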

Other observations

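Among E15 neurons, Syt2 levels differed with Gata3, a transcription factor gene of spiral ganglion neurons. Neurons with under 5 Gata3 UMIs per 10000 held 97.9 CPM of Syt2 in replicate 1 (43 cells) and 77.0 CPM in replicate 2 (62 cells). Neurons with at least 5 held 36.0 CPM (34 cells) and 33.4 CPM (36 cells). Slc17a6 was at 103.3 and 105.5 CPM in the former and at 126.0 and 114.4 CPM in the latter. Syt2 was not alone in differing. Kcna1 went the other way, at 29.5 and 31.65 CPM in the former and 51.2 and 44.0 CPM in the latter. So did Kcnc1, at 22.8 and 19.0 against 36.0 and 22.9 CPM. Slc17a7 went the way of Syt2, on at most 8 UMIs a group. The division was chosen after the values were seen and was not tested.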
